A study of Rattus norvegicus with 10 samples.

Results

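Transcripts of 4 ionotropic glutamate receptor subunits were examined in the rat hippocampus: Grin1, Grin2a and Grin2b, which encode the NMDA receptor subunits GluN1, GluN2A and GluN2B, and Gria1, which encodes the AMPA receptor subunit GluA1. They were taken from the deposited table by gene identifier, and all 4 were found among its 16643 genes (ENSRNOG00000011726 for Grin1, ENSRNOG00000033942 for Grin2a, ENSRNOG00000008766 for Grin2b and ENSRNOG00000045816 for Gria1). The table itself holds identifiers without names, so the names rest on the pairing given with the choice of genes.

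Polyadenylated RNA of the whole hippocampus was sequenced in 10 adult male rats, 5 bred High Responder (bHR) and 5 bred Low Responder (bLR), lines bred for strong or weak locomotion in a new environment. Both lines were at generation F43 of selection. Every rat had received 14 daily vehicle injections (saline and water) in standard housing, was used at postnatal day 92, and was killed 1 hour after exposure to an elevated plus maze, an anxiogenic apparatus. A social interaction score, for which no unit is given, was recorded in each rat. The rats are separate animals, so the spread between them is the error of every comparison of lines. Each line was the product of its own breeding, so selection for the behaviour and drift within a line cannot be told apart.

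NMDA receptors are glutamate-gated channels that open only when glutamate and a co-agonist are bound and the membrane is depolarized enough to expel magnesium from the pore. GluN1 is the obligatory subunit, and the GluN2 subunits set how long the channel stays open and how it is anchored. In the hippocampus GluN2B is prominent early in life and GluN2A becomes prominent as the circuit matures. AMPA receptors carry most of the fast excitatory current, and GluA1 is one of their main subunits in hippocampal pyramidal neurons, where its delivery to synapses is a step of long-term potentiation.

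One regulatory sequence is shown, that of Grin1, the only one of the 4 genes with a promoter in the sequence table used. It is the RefSeq promoter window of the GRCr8 build, chr3:28528705-28529004 on the minus strand, 250 bases before to 50 after the annotated start. Capitals mark a match to GCGGGGGCG, a form of the site bound by Egr-family factors, with the GC box GGGCGG that overlaps it.
Grin1: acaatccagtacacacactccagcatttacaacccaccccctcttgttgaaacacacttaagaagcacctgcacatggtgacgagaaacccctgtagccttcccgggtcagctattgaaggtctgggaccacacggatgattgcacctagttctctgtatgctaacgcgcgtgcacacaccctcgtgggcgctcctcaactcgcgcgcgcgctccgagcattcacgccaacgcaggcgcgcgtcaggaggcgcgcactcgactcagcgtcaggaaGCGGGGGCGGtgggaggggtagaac

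Both strands were searched. GCGGGGGCG was found in 2.73% of 33469 rat promoter windows of this length, and GGGCGG in 33.1%. In the Grin1 window the GCGGGGGCG match began 26 bases into the transcribed part. The cyclic AMP response element TGACGTCA, present in 1.83% of windows, is not in this one. The window holds 25 CG pairs against a median of 7 over all windows, and 59.7% of its bases are G or C against a median of 51.7%. These are matches of letters and not measured binding.

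The libraries held 29106105 to 48663164 reads assigned to genes. The shallowest were bLR replicates 4 (29106105 reads) and 5 (29211331 reads). bLR replicate 5 also stood apart in its scaling: the effective library size behind its deposited values was 0.933 of its read total, and in the other 9 libraries this figure lay between 1.00 and 1.02. Levels are given as RPM, reads scaled to a common effective library size, which do not correct for gene length, so the level of one gene is not compared with that of another as a number of molecules. The 4 genes were well covered, with 2005 to 4242 reads per library for Grin2b, the least abundant, and 13828 to 24213 for Grin1. In whole tissue, fewer cells of a type and less RNA per cell cannot be told apart. Markers of hippocampal cell types were not checked, because the identifiers are not paired with names.

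No receptor gene passed the test for a difference between the lines. The count was 0 of 4 at a Benjamini-Hochberg adjusted p under 0.05 over all genes (limma), and also 0 of 4 at an unadjusted p under 0.05 and 0 of 4 with limma on voom weights. Over all genes 1.38% were called at the adjusted threshold and 15.1% at the unadjusted one. The unadjusted count did not hold in every alternative, as given below for Grin1 and Gria1. The median log2 difference, bHR minus bLR, was 0.0032 over the 4 genes and -0.0072 over all genes tested. Of the 4 genes, 3 were higher in mean log2 level in bHR and 1 lower, against 7862 higher and 8781 lower over all genes. For Grin2a and Grin2b that log2 difference was near 0 (0.0059 and 0.00048), and their mean RPM was slightly lower in bHR. In none of the 4 genes did the lines separate without overlap, which 4.15% of all genes did.

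Grin1, the subunit that every NMDA receptor contains, was measured at 494, 479.5, 488, 463 and 479 RPM in bHR replicates 1 to 5. In bLR replicates 1 to 5 it was 479.9, 525, 498, 497 and 507 RPM. Of the bLR rats 4 of 5 lay above the highest bHR rat, and 3 of the 5 bHR rats lay below the lowest bLR rat, bLR replicate 1. With each library scaled to its total reads these numbers were 3 and 1, and the lowest bLR rat was replicate 5. Means were 481 ± 11.7 RPM (SD, n = 5) in bHR and 501 ± 16.4 (n = 5) in bLR. The log2 difference was -0.060 (SE 0.031, 95% interval -0.13 to 0.0085, limma adjusted p = 0.40), which is -4.09% in bHR and did not pass the test. With total-read scaling it was -0.035 (limma adjusted p = 0.73), and without bLR replicate 1 it was -0.076 (limma unadjusted p = 0.033, adjusted p = 0.27). The interval leaves room for a level in bHR between 0.915 and 1.01 times that in bLR.

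Grin2a encodes the GluN2 subunit that gives faster-closing channels. It stood at 160.3, 149, 166, 176 and 183 RPM in bHR replicates 1 to 5. Among the bLR rats the values were 160.2, 167, 176, 130 and 203 RPM. Here the bLR line held both extremes, the lowest rat being replicate 4 and the highest replicate 5, and the bHR rats lay between them. The line means were 167 ± 13.4 RPM (SD, n = 5) in bHR and 167 ± 26.6 in bLR. The log2 difference of 0.0059 (SE 0.099, 95% interval -0.21 to 0.22, limma adjusted p = 0.98) was far smaller than its error.

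Grin2b, whose subunit gives slower-closing channels with a long tail that binds signalling kinases, was measured at 80.5, 70.3, 85.6, 72.5 and 83.8 RPM in bHR replicates 1 to 5. The bLR values were 68.6, 77.1, 88.3, 68.6 and 91.6 RPM. Again the extremes were in bLR, with replicates 1 and 4 below every bHR rat and replicates 3 and 5 above every bHR rat, of which 1 remained above with total-read scaling. Means were 78.5 ± 6.80 RPM (SD, n = 5) in bHR and 78.8 ± 10.8 in bLR. The log2 difference was 0.00048 (SE 0.089, 95% interval -0.19 to 0.20, limma adjusted p = 1.00). For both GluN2 genes the interval reaches about the same distance to either side, from 0.864 to 1.17 times the bLR level for Grin2a and from 0.874 to 1.15 times for Grin2b.

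Gria1 showed the widest gap between the line means of the 4. Its level was 430.3, 436, 482, 476 and 477 RPM in bHR replicates 1 to 5. In bLR it was 432, 409.6, 451, 355 and 504 RPM. The highest and the lowest rat were again bLR replicates 5 and 4, and 2 of the 5 bLR rats, replicates 2 and 4, lay below every bHR rat. With total-read scaling 0 of the 5 bLR rats lay above the highest bHR rat. Means were 460.3 ± 24.9 RPM (SD, n = 5) in bHR and 430.2 ± 54.7 in bLR. The log2 difference of 0.11 (SE 0.078, 95% interval -0.064 to 0.28, limma adjusted p = 0.58), or 7.59%, did not pass the test. It was 0.038 without bLR replicate 4 (limma adjusted p = 0.80) and 0.16 without bLR replicate 5 (limma unadjusted p = 0.031, adjusted p = 0.27). Without both of these shallowest libraries it was 0.095 (limma adjusted p = 0.40), close to the value over all rats.

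**Figure D1:**
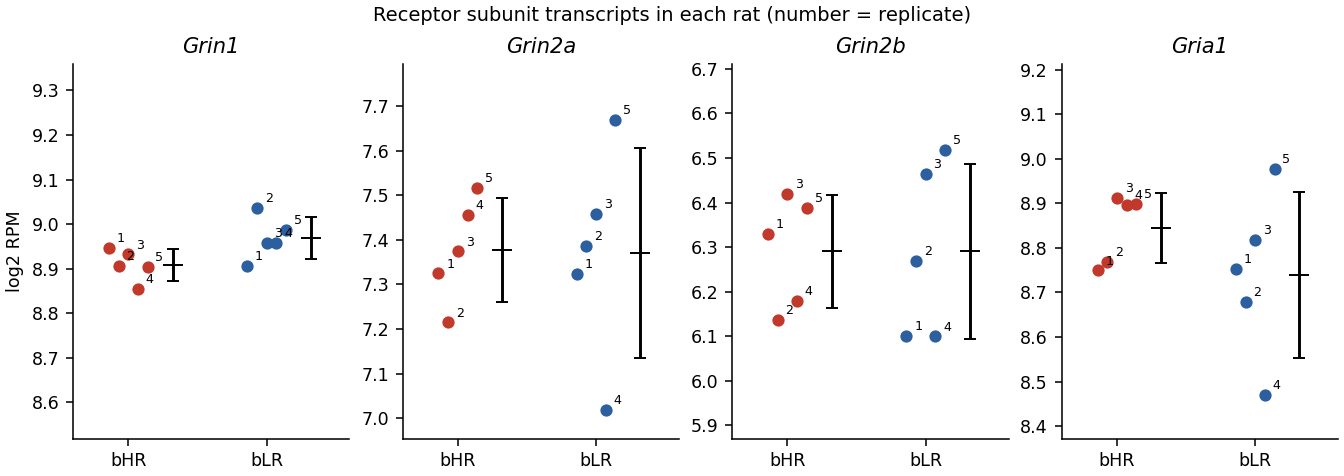
Level of each gene in each rat, as log2 RPM on a vertical axis that spans the same number of log2 units in every panel; points are rats numbered by replicate, and the bar beside them is the line mean with its SD (n = 5). Grin1 is tightly grouped in both lines, whereas bLR replicates 4 and 5 lie at the bottom and the top of the bLR rats for Grin2a, Grin2b and Gria1.

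Ratios between subunit transcripts were compared next, because a ratio within a library does not depend on how that library was scaled. For each of the 6 pairs the difference between lines was tested by a two-sided exact permutation test over every assignment of the rats to the lines, which can give no p below 0.0079, with adjustment over the 6 pairs. No ratio passed: 0 of 6 passed at an adjusted p under 0.05, and 0 of 6 at an unadjusted p under 0.05. The balance of the GluN2 subunits was nearly the same in mean. The ratio of Grin2a to Grin2b RPM was 1.99, 2.11, 1.94, 2.42 and 2.19 in bHR replicates 1 to 5. It was 2.33, 2.17, 1.99, 1.89 and 2.22 in bLR replicates 1 to 5. The lines overlapped almost completely, with only the highest bHR rat and the lowest bLR rat outside the other line's range.

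The mean ratio of Grin2a to Grin2b was 2.13 ± 0.19 (SD, n = 5) in bHR and 2.12 ± 0.18 in bLR, a log2 difference of 0.0054 (SE 0.078, exact p = 0.94, adjusted p = 0.94). The 95% interval, from inverting the same test, ran from -11.1% to 13.6%. Stated as a share, Grin2b took 32.0% ± 1.89 (SD, n = 5) of the reads of both genes together in bHR and 32.1% ± 1.85 in bLR. It ranged from 29.2% to 34.6% over all 10 rats. These shares are of reads and depend on the lengths of both transcripts, so only their difference between rats can be read.

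The ratios with Gria1 were higher in mean in bHR, and none passed the test. Gria1 over Grin1, the AMPA subunit relative to the obligatory NMDA subunit, was 0.871, 0.91, 0.986, 1.03 and 0.996 in bHR replicates 1 to 5. In bLR it was 0.899, 0.78, 0.907, 0.713 and 0.993. Only 2 bHR rats lay above the highest bLR rat and only 2 bLR rats below the lowest bHR rat. The log2 difference was 0.17 (SE 0.096, exact p = 0.13, adjusted p = 0.38), or 12.2% with a 95% interval of -3.08% to 32.8%, the largest mean difference of the 6 ratios. It ranged from 0.10 to 0.22 when 1 rat was left out, with the lowest value without bLR replicate 4 and the highest without bLR replicate 5.

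Gria1 over Grin2a gave the smallest p of the 6 and the smallest SE. The ratio was 2.68, 2.94, 2.90, 2.71 and 2.60 in bHR and 2.69, 2.45, 2.57, 2.74 and 2.48 in bLR. Of the bLR rats, 3 lay below every bHR rat, while replicates 1 and 4 lay within the bHR range. The log2 difference was 0.10 (SE 0.046, exact p = 0.079, adjusted p = 0.38), or 7.15% with a 95% interval of -0.78% to 16.5%. Gria1 over Grin2b was 5.89 ± 0.49 (SD, n = 5) in bHR and 5.48 ± 0.48 in bLR, a log2 difference of 0.11 (SE 0.076, exact p = 0.19, adjusted p = 0.38). Without bLR replicate 4, Gria1 over Grin2a had an exact p of 0.048 (adjusted p = 0.29). Without bLR replicate 1, Gria1 over Grin2b had an exact p of 0.04 (adjusted p = 0.21).

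Relative to Grin1, the GluN2 transcripts showed smaller mean differences with wide errors. Grin2a over Grin1 was 0.347 ± 0.032 (SD, n = 5) in bHR and 0.334 ± 0.051 in bLR, a log2 difference of 0.066 (SE 0.12, exact p = 0.61, adjusted p = 0.73). Grin2b over Grin1 was 0.163 ± 0.012 in bHR and 0.157 ± 0.020 in bLR, a log2 difference of 0.061 (SE 0.095, exact p = 0.53, adjusted p = 0.73). In both ratios the rats of bLR reached further in either direction than those of bHR.

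**Figure D2:**
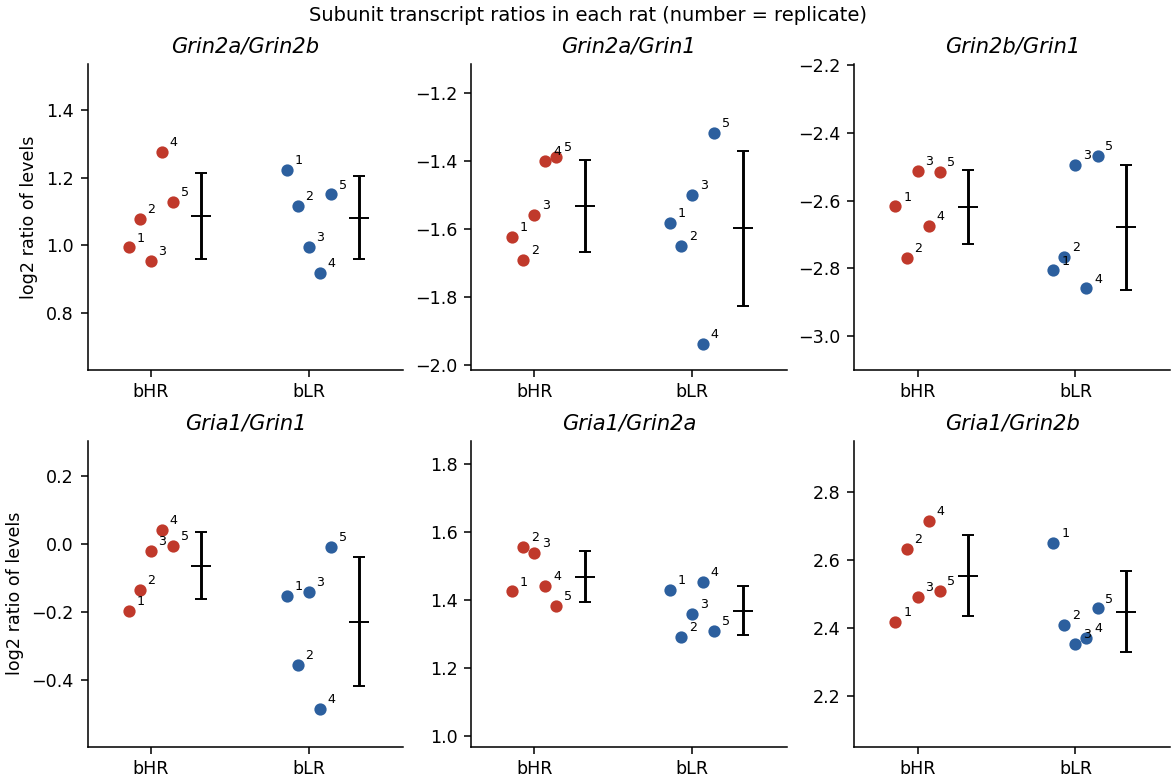
The 6 ratios of RPM levels between subunit transcripts in each rat, on a log2 axis of equal span in every panel; points are rats numbered by replicate and bars are line means with SD (n = 5). The lines overlap in every ratio, and the bHR means lie above the bLR means most clearly in the 3 ratios with Gria1 on top.

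**Figure D3:**
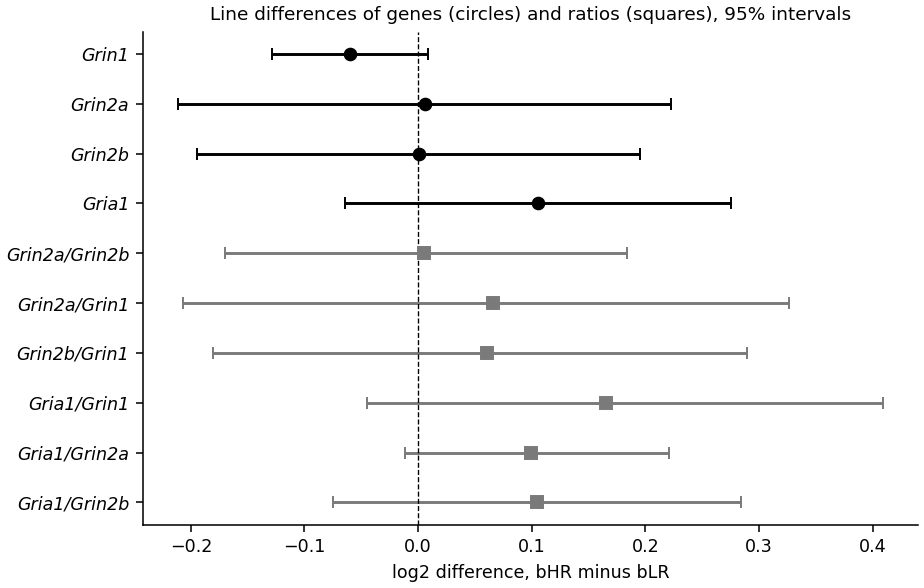
Differences between lines, bHR minus bLR on the log2 scale, with 95% intervals from limma for the 4 genes (circles) and from the exact permutation test for the 6 ratios (squares), n = 5 rats per line. All 10 intervals include 0, and the narrowest belongs to Grin1.

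The spread between rats of a line differed among the subunits. After the line mean was subtracted, Grin1 had an SD of 0.042 log2 units, and only 15.1% of the 3348 genes with a mean log2 level of at least 6 had a smaller one. The SD was 0.19 for Grin2a, 0.17 for Grin2b and 0.14 for Gria1. Of the same abundant genes, 95.5%, 93.7% and 90.9% had a smaller SD than these 3, and the median was 0.066. The obligatory subunit was thus among the less variable abundant transcripts and the other 3 among the more variable. This is a description of these 10 libraries at their deposited scaling, with no test of the difference.

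Much of that spread lay in the bLR line. The SD of log2 levels in bLR was 2.36 times that in bHR for Gria1, 2.01 times for Grin2a, 1.55 times for Grin2b and 1.33 times for Grin1. A larger SD in bLR was common among abundant genes: 75.9% of the 3348 had one, with a median ratio of 1.48. In bLR replicate 4, the levels lay below the line mean by 0.35 log2 units for Grin2a, 0.27 for Gria1 and 0.19 for Grin2b, and by 0.011 for Grin1. In bLR replicate 5 they lay above it by 0.30 for Grin2a, 0.24 for Gria1 and 0.23 for Grin2b, and by 0.017 for Grin1. Both are the shallowest libraries and they moved in opposite directions. The deviations and SDs are at the deposited scaling and were not recomputed with total-read scaling. In the deposited scaling the effective size of bLR replicate 5 was 0.933 of its read total. With total-read scaling that rat was the lowest of bLR for Grin1, at 473 RPM. Whether depth or scaling contributes was not tested.

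Whether the subunits varied together within lines was then tested, and 1 of the 6 pairs passed. Correlations were computed over the 10 rats after the line mean was subtracted, with permutation p-values adjusted over the 6 pairs. Gria1 and Grin2a had a Pearson r of 0.93 (permutation p = 0.0040, adjusted p = 0.024) and a Spearman rho of 0.87 (permutation p = 0.0053, adjusted p = 0.032). Without bLR replicates 4 and 5, the rats farthest from the median, r was 0.71 and no longer passed (permutation p = 0.10, adjusted p = 0.43). The call was also lost when any 1 of 4 rats was left out: bHR replicate 2 (adjusted permutation p = 0.052), bLR replicate 3 (0.10), bLR replicate 4 (0.10) or bLR replicate 5 (0.080), while r stayed between 0.85 and 0.95. All genes of a library share its scaling. With the libraries shifted to a common median this pair alone passed as well (r = 0.94, adjusted permutation p = 0.028). The library medians already lay between 4.10 and 4.12 log2 units, so that shift changed little. The correlations were not rerun with total-read scaling, and whether the scaling of bLR replicate 5 contributes was not tested.

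Grin2a and Grin2b had an r of 0.76 (permutation p = 0.021, adjusted p = 0.064) and a rho of 0.77 (permutation p = 0.023, adjusted p = 0.046), with an r of 0.57 without bLR replicates 4 and 5. Gria1 and Grin2b had an r of 0.71 (permutation p = 0.045, adjusted p = 0.090) and a rho of 0.82 (permutation p = 0.019, adjusted p = 0.046), with an r of 0.43 without the same rats. Both pairs passed in rank order and not in Pearson's r. None of the 3 pairs with Grin1 passed in either measure: r was 0.46 with Grin2b (permutation p = 0.25, adjusted p = 0.37), 0.091 with Grin2a (permutation p = 0.86, adjusted p = 0.90) and -0.076 with Gria1 (permutation p = 0.90, adjusted p = 0.90). Their rho values were 0.45, 0.055 and -0.018 (permutation p = 0.26, 0.90 and 0.98, adjusted p = 0.39, 0.98 and 0.98). Without bLR replicates 4 and 5 the 3 r values were 0.46, -0.11 and -0.49. Within either line the 5 rats are too few for a correlation of their own.

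**Figure D4:**
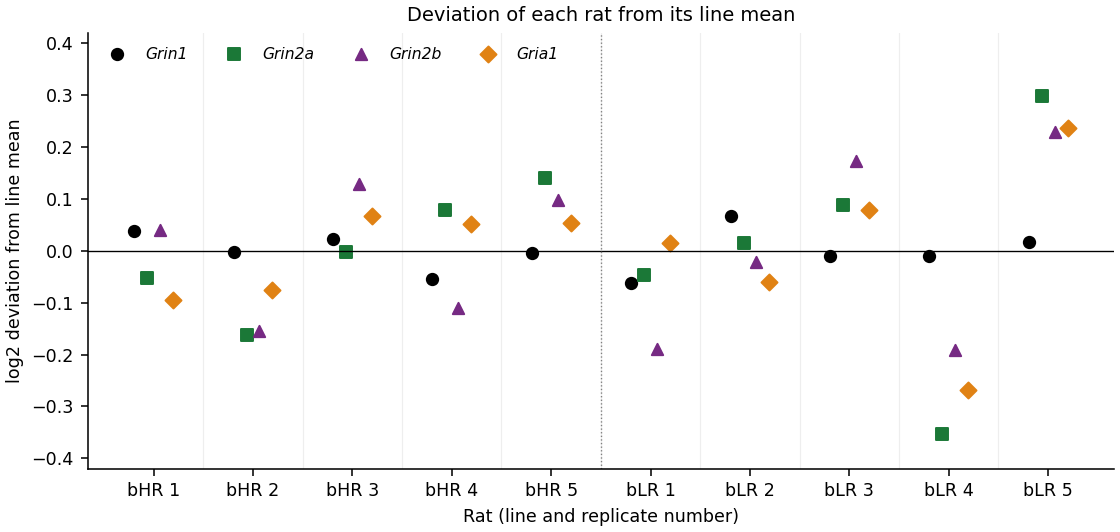
Deviation of each rat from its line mean in log2 units for the 4 genes; the dotted line separates the lines and each marker is 1 gene. At the deposited scaling, Grin2a, Grin2b and Gria1 lie below the line mean in bLR replicate 4 and above it in bLR replicate 5. Grin1 stays within 0.067 log2 units of its line mean in every rat at that scaling.

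The members were also placed among all genes by how similarly they varied within lines, over 10 rats and 13795 other genes with a mean log2 level of at least 1. For Grin2a, Gria1 ranked 10th of these genes, and for Gria1, Grin2a ranked 15th. Grin2b ranked 415th for Grin2a and 538th for Gria1, and Grin1 ranked 5750th for Grin2a and 7754th for Gria1. The closest gene to Grin2a was ENSRNOG00000003792 (r = 0.98) and the closest to Grin1 was ENSRNOG00000042833 (r = 0.98), both named by identifier because no symbol is paired with them. An r of at least 0.8 was reached by 1.86% of genes with Grin2a, 1.48% with Gria1, 1.29% with Grin2b and 0.667% with Grin1. These likenesses are descriptions of 10 libraries and were picked from 13795 genes, so they carry no p.

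Variation across the whole transcriptome touched these genes unequally. The second principal component of the within-line deviations held 20.5% of their variance, and its extremes were bLR replicate 5 at 0.768 and bLR replicate 4 at -0.503. Gria1 and Grin2a followed it with r of 0.77 and 0.75, and 4.14% and 4.70% of genes followed it more closely in either direction. Grin2b (r = 0.42) and Grin1 (r = 0.078) followed it less, against a median absolute r of 0.30 over all genes. The first component, which held 27.8%, was followed by none of the 4 beyond the median of 0.391 over all genes, the highest r being 0.305 for Grin2b. The third component held 16.1% of the variance. Grin1 followed it with r of 0.577, against a median absolute r of 0.273, and 11.5% of genes followed it more closely. What these components stand for was not tested.

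The last comparison asked whether subunit levels tracked social interaction within a line, with both the line and the score as terms of a limma model. No receptor gene passed the test for a slope: 0 of 4 passed at an adjusted p under 0.05, where 0 of all 16643 genes did, and 1 of 4 passed at an unadjusted p under 0.05, where 7.11% of all genes did. That gene was Gria1, with a log2 slope of -0.015 per score point (SE 0.0062, 95% interval -0.029 to -0.0014, limma adjusted p = 0.69). It amounts to -0.15 log2 units for 10 points. The slope was -0.0041 without bLR replicate 4 (limma adjusted p = 1.00) and -0.010 without bLR replicate 5 (limma adjusted p = 0.81). It was steepest, -0.020, without bHR replicate 2 (limma adjusted p = 0.41), and it stayed negative whichever rat was left out.

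Those same 2 rats lie near the ends of the score: bLR replicate 4 had the highest score of its line, 24, and bLR replicate 5 the lowest, 7.33. Grin2a had a slope of -0.016 (SE 0.0085, limma adjusted p = 0.74), which became 0.0021 without bLR replicate 4. The slope was -0.0089 for Grin2b (SE 0.0084, limma adjusted p = 0.85) and -0.0018 for Grin1 (SE 0.0030, limma adjusted p = 0.92). In the same model the difference between lines at equal score was 0.24 for Gria1 (SE 0.086, limma unadjusted p = 0.017, adjusted p = 0.30), against 0.11 without the score. It was 0.15 for Grin2a (limma adjusted p = 0.68), 0.081 for Grin2b (limma adjusted p = 0.85) and -0.044 for Grin1 (limma adjusted p = 0.75). None passed the adjusted threshold, and line and score share part of their variation.

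**Figure D5:**
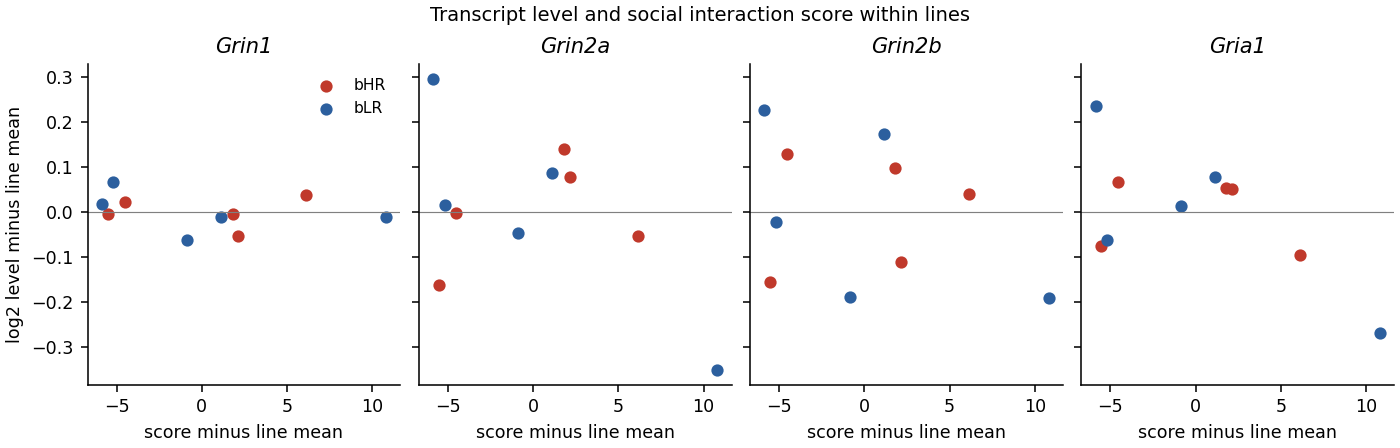
Level of each gene against the social interaction score, both as differences from the line mean (level in log2 units, score in points of unstated unit); each point is 1 rat, coloured by line. At the deposited scaling, the bLR rat with the highest score lies lowest for Grin2a, Grin2b and Gria1, and the bLR rat with the lowest score lies highest. Grin1 stays near 0. For Grin2b the lowest place is a near tie, 68.57 RPM in bLR replicate 4 and 68.64 in bLR replicate 1. With total-read scaling the highest bLR rat for Grin2b was replicate 3, at 89.1 RPM.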

How the data were processed

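Reads of 50 bases were aligned to Rnor_6.0 with Subread, and featureCounts made gene counts from Ensembl 85, per the labels' protocols. Genes reaching 16 counts in 5 or more samples were kept and turned into log2 RPM by limma voom, per the labels' protocols. The submitters' processing notes name R 3.2.2. The deposited values are these log2 values, 1 column per rat, and 0 columns were left unused. Strand use in counting was not given in the sources used here. How reads in overlapping genes were assigned is therefore not known. No identifier (0 of 16643) matched the RefSeq table, so the lists of other glutamate receptor genes and of cell type markers were not run. The RefSeq promoter table (GRCr8) held Grin1 alone of the 4 genes. Grin2a, Grin2b and Gria1 are not in it.

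Whole reads were recovered from the log2 values with 1 constant per library, within a tolerance of 0.01 reads for 100.0% of values. Libraries of a line differed by more than sampling noise in every pair (chi-square per gene at least 6.05 over 20 pairs). The comparison of lines used limma 3.58.1 (R 4.3.3) and the log2 values of all genes, with an intensity trend and Benjamini-Hochberg adjustment at 0.05, and the model was tested on simulated data. Ratios were compared by exact permutation tests over the rats. Correlations were tested with 100000 shuffles within lines. Python 3.11.15 was used for the rest, with pandas 2.3.3, numpy 2.4.6 and, for figures, matplotlib 3.10.9. The 4 genes are all named, with the 2 identifiers that varied most like a member. The genes, lists and tests were chosen with earlier results of these data known. Alternatives changed the variance prior, the genes kept (mean log2 value of at least 1), the scaling, the weights, the score term, a prior count of 2 reads, the replicate block, and each library left out. Leaving out both shallowest libraries was chosen after seeing the data.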

Additional observations from a re-analysis of the deposited data

How the results depend on the processing

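The counts of 0 genes changed between lines, 0 ratios changed and 0 genes following the score held in every alternative run, and leaving out 1 library gave 0 to 0 for each. Some of these runs could hardly have given another count. Each score setting called 0 or 1 of all genes tested. In the exact test of medians many assignments of the rats share the same value, so a ratio could hardly pass after adjustment. Means close to 0 changed sign. The Grin2a line difference was -0.022 with library weights and -0.013 without both shallowest libraries, and -0.082 to 0.080 without 1 library, and 0.15 with the score as a covariate. The Grin2b difference was 0.081 with the score, -0.0010 with quantile normalization, -0.035 with library weights, and -0.047 to 0.057 without 1 library. The log2 difference of the Grin2a to Grin2b ratio was -0.039 for medians, -0.025 without both shallowest libraries, and -0.042 to 0.041 without 1 library. That of Grin2a to Grin1 was -0.019 to 0.14 without 1 library. Score slopes without 1 library ran from -0.023 to 0.0021 for Grin2a and from -0.015 to 0.00079 for Grin2b. The 1 pair that varied together became 3 by Spearman, 0 without both shallowest libraries, and 0 to 2 without 1 library. Without both shallowest libraries r was -0.11 for Grin2a and Grin1, and without 1 library it ran from -0.016 to 0.21 for that pair and from -0.25 to 0.041 for Gria1 and Grin1. Where all libraries were kept, the cause was not tested.

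Over all genes, the 230 called between lines became 152 without the trend, 46 with the score as a covariate and 503 at an adjusted p under 0.10. Replicate numbers are shared between the lines, and whether they mark a pairing of rats is not stated in the sources used here. Deviations of same-numbered rats correlated at -0.15 to 0.15, and for 1 of the 5 bHR rats the best match was the bLR rat of its number. With so few rats these values cannot settle whether the numbers pair them. With the replicate block 0 receptor genes changed between lines, 0 followed the score and 0 ratios changed (the smallest sign-flip p possible is 0.062, so that test could not pass), 108 of all genes changed between lines, and the score slopes were 0.0035 for Grin1, 0.0010 for Grin2b, -0.020 for Grin2a and -0.023 for Gria1 (limma adjusted p = 0.54 for Gria1). The count test on recovered reads was not run, because the deposited unit is log2. The size of difference that 5 rats per line can detect in these genes was not computed.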
